A study of Mus musculus with 9 samples.

Results

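Tumours of LLC (Lewis lung carcinoma cells, a line derived from a C57BL/6 mouse) were compared between mice given digoxin at 1 mg/kg and mice given digoxin at 0.1 mg/kg. The comparison took every library labelled with either dose, 3 per dose and 6 of the 9 libraries of the study, and the 3 vehicle libraries served as background. The hosts were male C57BL/6 animals, 4 to 5 weeks old, and the cells were placed under the skin of the right flank. From day 5 after injection of the cells, the mice received PBS (vehicle), 0.1 mg/kg digoxin or 1 mg/kg digoxin into the peritoneum. How often the drug was given, and how long after the last dose the tumours were taken, is not given in the sources used here. Nothing in the labels ties the samples of one dose to different animals. The p-values therefore reflect the spread among these libraries alone, and that spread could be technical. A tumour of this kind is a transplanted cell line with host blood vessels, stroma and immune cells, and bulk RNA cannot tell fewer cells of a type from less RNA per cell.

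Digoxin is a cardiac glycoside. It blocks the Na,K-ATPase, the pump that exports sodium and imports potassium, and the pump of rodents is known to be far less sensitive to the drug than that of humans. When the pump is blocked, cell sodium and then calcium rise, and calcium and kinase signals switch on immediate early genes such as Fos and Jun within minutes to hours. Cardiac glycosides are also known to lower production of the HIF-1 alpha protein in cultured cells, and HIF-1 is the factor that drives glycolysis and other responses to low oxygen. In a tumour, interferon-gamma made by T cells and NK cells induces MHC class II molecules, guanylate-binding proteins and the chemokines Cxcl9 and Cxcl10 in host and tumour cells.

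The values were FPKM, fragments per kilobase of gene scaled to the depth of the library, and the depth in their denominator was 40517062 to 42252370 at 1 mg/kg, 42870997 to 43319883 at 0.1 mg/kg and 48649867 to 51810956 with vehicle. Of 35321 genes, 13124 reached 1 FPKM in at least 3 of the 6 digoxin libraries and were tested with limma on log2(FPKM + 1), a scale on which differences of weakly expressed genes come out too small. Differences below are the mean at 1 mg/kg minus the mean at 0.1 mg/kg on that scale, with their standard error (SE). The libraries of a dose were uneven. On the first principal component of the 6 libraries (46.3% of the variance), 0.1 mg/kg sample 2 scored 13.9 against −13.0 and −19.9 for its group, and 1 mg/kg sample 1 scored 42.3 against −14.6 and −8.78 for its group. The vehicle libraries, placed on the same component, scored 32.6 to 35.3, so each uneven library lay on the vehicle side of its own group. More genes were read above 0 in 1 mg/kg sample 1 (28003) than in the other digoxin libraries (25343 to 26358). The leading differences are therefore also given without both uneven libraries, from 2 samples per dose. Markers of macrophages, T cells, endothelium and fibroblasts were read in every library. Markers of lung epithelium, the tissue from which LLC was derived, summed to only 12.5 to 17.5 FPKM with the lower dose and 10.6 to 11.5 FPKM with the higher one, over the 8 genes found.

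Higher at 1 mg/kg than at 0.1 mg/kg were heat shock genes, HIF-1 targets with glycolysis enzymes, and many immediate early genes with ligands of the EGF receptor. Lower were MHC class II genes, T cell markers, T cell chemokines, part of the macrophage markers and the GTPases induced by interferon-gamma. By limma, no single gene had an adjusted p under 0.05 (0% of tested genes, smallest adjusted p = 0.291, Benjamini-Hochberg over 13124 genes), so none of the differences below is a call, and "higher" and "lower" describe the measured values. Without adjustment, 1216 genes had p under 0.05 (447 or 3.41% higher, 769 or 5.86% lower). limma-voom on reads recovered from the FPKM values also called 0 genes. A fit that shared its estimate of spread with the vehicle libraries called Gbp2b and Marcks, both lower at 1 mg/kg. limma with sample weights called 563 genes (172 higher, 391 lower). It weighted 1 mg/kg sample 1 by 0.193, sample 2 by 1.19 and sample 3 by 8.64. Its 1 mg/kg mean thus rested mostly on sample 3. The 0.1 mg/kg samples 1, 2 and 3 were weighted by 1.25, 0.300 and 1.35. The fit without both uneven libraries called 9 (2 higher, Adm and a predicted gene, and 7 lower, among them Lst1 and Aif1). The weights and the choice of uneven libraries came from these same data, so these calls are no independent support.

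As a description that needs no model, the 3 values at 1 mg/kg lay wholly above the 3 values at 0.1 mg/kg for 822 tested genes (6.26%) and wholly below them for 1455 (11.1%). These shares are the background for every count of non-overlapping members below. Members of a list were measured in the same libraries and can move together, so such counts are not independent results and were not tested. After equalising the library medians the split was 1254 above (9.56%) and 958 below (7.3%), after quantile normalisation 1169 (8.91%) and 1019 (7.76%), and after rescaling to TPM 999 and 1160, so the excess of lower over higher genes depended on the scaling. It also depended on 1 mg/kg sample 1. Without that library the split was 2299 above (17.5%) and 2179 below (16.6%) in the deposited values. The median difference over all tested genes was −0.04 in the deposited values and 0.00 after equalising medians. Without both uneven libraries the 2 values per dose did not overlap for 24.5% of genes above and 24.7% below.

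**Figure D1:**
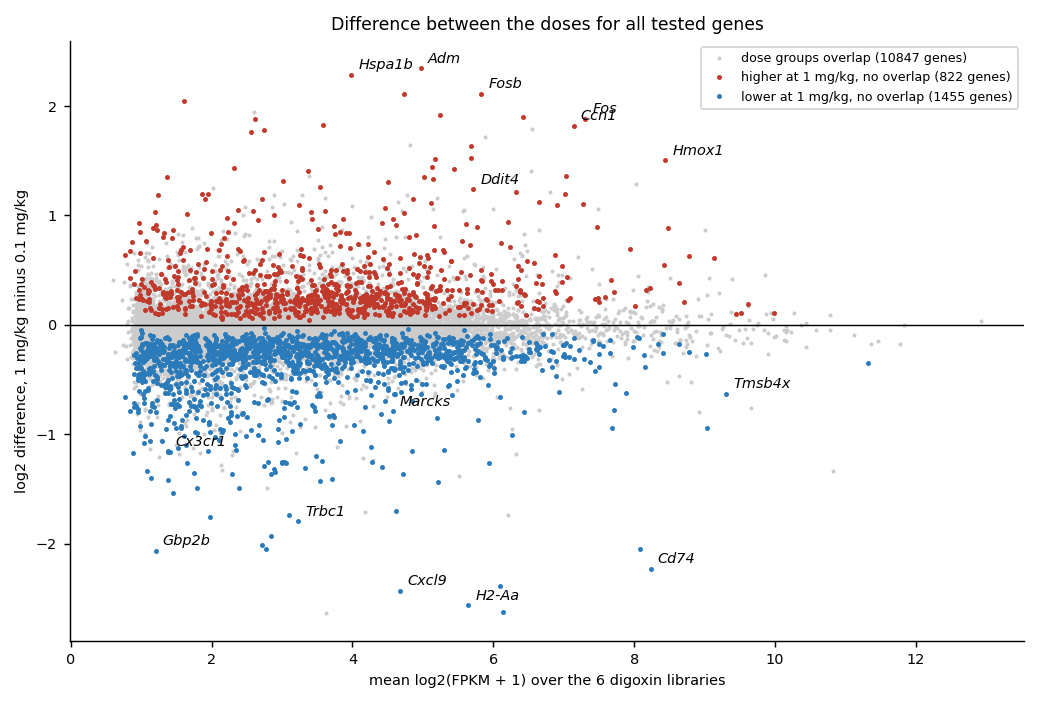
Difference between the doses (1 mg/kg minus 0.1 mg/kg, log2(FPKM + 1) scale, vertical axis) against the mean level over the 6 digoxin libraries (horizontal axis) for the 13124 tested genes. Coloured points are the 822 genes (red) and 1455 genes (blue) whose values did not overlap between the doses. Hspa1b, Adm, Fosb, Fos and Ccn1 lie among the highest differences and H2-Aa, Cxcl9, Cd74 and Gbp2b among the lowest, while most points lie close to 0.

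**Figure D2:**
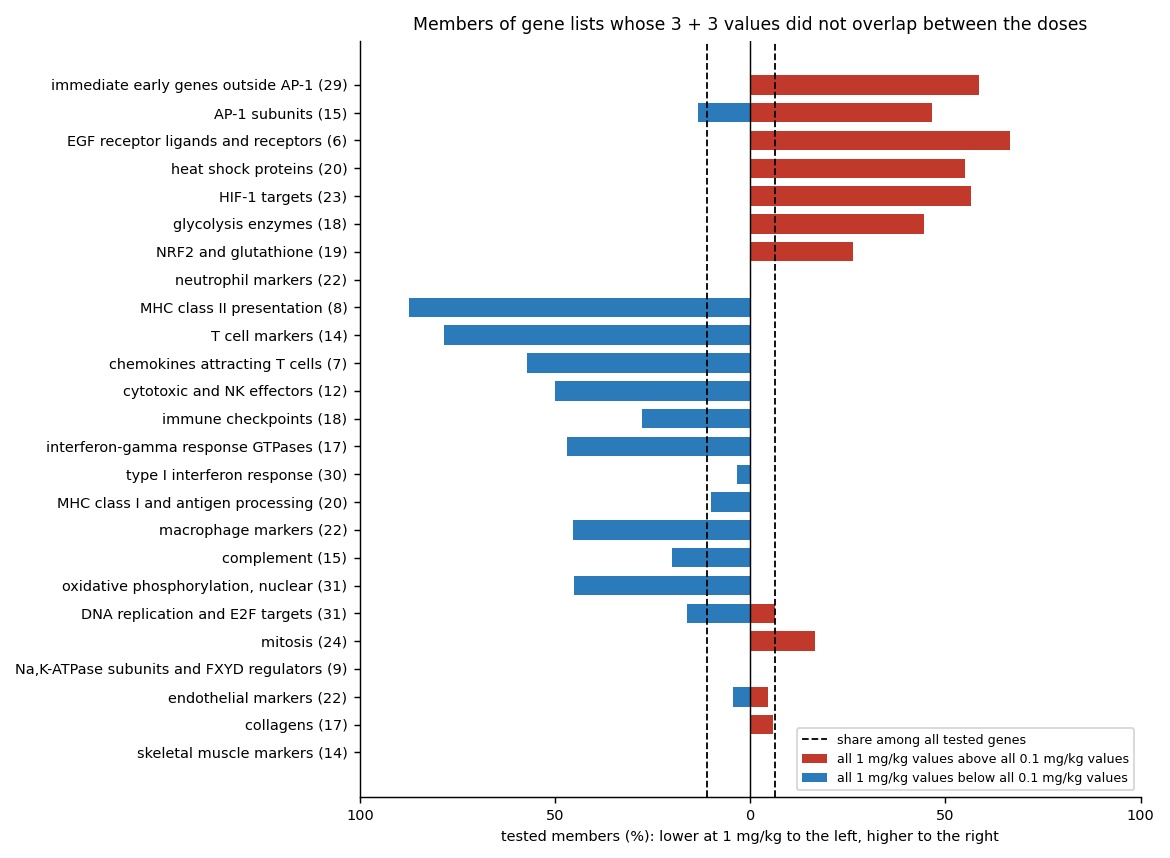
Share of the tested members of each gene list (number in brackets) whose 3 + 3 values did not overlap between the doses, higher at 1 mg/kg to the right and lower to the left. The dashed lines mark the same shares over all tested genes, 6.26% higher and 11.1% lower. Stress and immediate early lists extend to the right and lymphocyte, MHC class II and interferon-gamma lists to the left.

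Heat shock genes were higher at the higher dose. Of 20 heat shock proteins and cochaperones, all of which passed the filter, 11 lay wholly above the 0.1 mg/kg values and 0 below, and the median difference was 0.20 (0.18 without both uneven libraries). Relative to vehicle the median was −0.05 with the lower dose and 0.23 with the higher dose. Their summed level was 2048, 2258 and 1998 FPKM at 0.1 mg/kg and 2609, 2305 and 2393 FPKM at 1 mg/kg. With vehicle it was 2720.5 to 2874 FPKM, above every digoxin library. Hspa1b, one of the 2 stress-inducible Hsp70 genes, was at 10.2, 5.04 and 4.398 FPKM at 0.1 mg/kg and 38.9, 28.6 and 34.7 FPKM at 1 mg/kg, with vehicle at 6.66 ± 2.65 (SD, n = 3). The groups did not overlap, and the 0.1 mg/kg values lay around the vehicle level. The difference was 2.29, SE 0.28 (limma adjusted p = 0.393), and 2.07 without both uneven libraries. Its neighbour Hspa1a was at 4.12, 1.78 and 1.28 FPKM at 0.1 mg/kg and 16.3, 7.23 and 10.3 FPKM at 1 mg/kg (difference 1.88, SE 0.38). The 2 genes are near copies, so how reads were shared between them is uncertain. Of the 250 bases before their starts, which lie outside the transcript, 247 are identical (98.8%).

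Dnajb1, the Hsp40 partner of Hsp70, was at 29.4, 27.97 and 31.9 FPKM at 0.1 mg/kg and 57.2, 44.7 and 44.4 FPKM at 1 mg/kg, with vehicle at 25.6 ± 1.73. Its difference was 0.69, SE 0.12. Hsph1, a nucleotide exchange factor of Hsp70, was at 14.4, 15.6 and 14.99 FPKM at 0.1 mg/kg and 22.2, 20.9 and 21.1 FPKM at 1 mg/kg, with both dose groups below vehicle (27.3 ± 1.15). The 1 mg/kg values of Hsph1 thus lay between those of the 0.1 mg/kg and vehicle groups. Dnajb4 (difference 0.59), the small heat shock protein genes Hspb1 (0.89) and Hspb8 (0.41), and the cochaperone Bag3 (0.46) were also without overlap. Hspb1 was at 43.5, 28.6 and 47.8 FPKM at 0.1 mg/kg and 52.8, 88.7 and 83.8 FPKM at 1 mg/kg against 5.61 ± 1.596 with vehicle, so it was above vehicle at both doses and highest at 1 mg/kg. Hspa8, a constitutive Hsp70 gene, was at 689, 659 and 663 FPKM at 0.1 mg/kg and 695, 734 and 731 FPKM at 1 mg/kg, and Hsp90ab1 overlapped between the doses (difference 0.17, SE 0.14).

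Heat shock genes are driven by HSF1, which binds heat shock elements built of inverted GAA units. The 250 bases before the start of Hspa1b (RefSeq, GRCm38.p6, chr17:34959239-34959488, minus strand) are shown because this gene had the lowest p among the genes higher at 1 mg/kg. Capitals mark the match to GAANNTTC, which begins 104 bases before the start.
Hspa1b: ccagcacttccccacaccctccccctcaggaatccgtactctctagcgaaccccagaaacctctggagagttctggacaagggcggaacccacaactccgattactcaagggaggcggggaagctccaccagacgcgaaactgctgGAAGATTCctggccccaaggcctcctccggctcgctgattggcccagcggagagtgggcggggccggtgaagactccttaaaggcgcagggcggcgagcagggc
GAANNTTC, whose reverse complement is the same pattern, was found in 6 of the 15 heat shock genes with a promoter entry and in 6.69% of all 32851 promoter entries of that length. The pattern was also found in 2 of the 6 tested MHC class II genes with an entry, H2-Aa among them, a list that was lower at 1 mg/kg. The match describes the letters only.

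HIF-1 targets were higher at 1 mg/kg and close to vehicle at 0.1 mg/kg. Of 24 targets, 23 passed the filter, 13 of these lay wholly above the 0.1 mg/kg values and 0 below, and the median difference was 0.69. It was 0.39 without 1 mg/kg sample 1 and 0.55 without both uneven libraries. The median of the same genes was 0.01 above the vehicle mean with the lower dose and 0.86 above it with the higher dose, and these differences share the digoxin groups with the comparison of the doses. Hif1a itself, which encodes the oxygen-regulated subunit, was at 32.03, 28.4 and 23.9 FPKM at 0.1 mg/kg and 34.5, 27.1 and 27.3 FPKM at 1 mg/kg (difference 0.07, SE 0.15), with overlapping groups.

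Adm, which encodes the vasodilator peptide adrenomedullin, was at 17.9, 7.06 and 16.7 FPKM at 0.1 mg/kg and 130.1, 53.7 and 48.4 FPKM at 1 mg/kg against 11.9 ± 1.803 with vehicle. All 1 mg/kg values were above every other library, the highest being sample 1. The difference was 2.35, SE 0.47 (limma adjusted p = 0.393), and 1.51 without both uneven libraries. In that fit the limma adjusted p was 0.0446, but those libraries were left out after their values were seen, so it is no independent support. Ddit4, an inhibitor of mTORC1 induced by low oxygen and other stresses, was at 44.4, 32.8 and 24.9 FPKM at 0.1 mg/kg and 81.1, 89.4 and 69.97 FPKM at 1 mg/kg (vehicle 43.3 ± 4.75). Its difference (1.24, SE 0.21) was nearly the same without both uneven libraries (1.22), and here sample 1 was not the highest.

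Bnip3, a mitochondrial receptor for mitophagy, was at 28.5, 22.4 and 14.96 FPKM at 0.1 mg/kg and 91.95, 40.7 and 44.8 FPKM at 1 mg/kg. Its relative Bnip3l was at 41.2, 37.8 and 36.7 FPKM at 0.1 mg/kg and 61.6, 50.2 and 51.5 FPKM at 1 mg/kg. Ero1a, an endoplasmic reticulum oxidase, was at 26.3, 20.97 and 14.9 FPKM at 0.1 mg/kg and 101, 39.2 and 45.99 FPKM at 1 mg/kg. In each of these genes sample 1 of the 1 mg/kg group stood highest, and the other 1 mg/kg samples still exceeded every 0.1 mg/kg sample. The collagen prolyl hydroxylase gene P4ha2 was at 21.2, 12.8 and 17.7 FPKM at 0.1 mg/kg and 37.5, 32.6 and 28.9 FPKM at 1 mg/kg against 4.096 ± 0.882 with vehicle, so it was also above vehicle at 0.1 mg/kg. P4ha1 (difference 0.73), Ndrg1 (1.35), the glucose transporter gene Slc2a1 (1.21) and Egln1, the oxygen sensor that marks HIF for decay (0.69), did not overlap either. Vegfa, the endothelial growth factor, was at 24.3, 13.7 and 12.4 FPKM at 0.1 mg/kg and 70.5, 21.3 and 31.005 FPKM at 1 mg/kg, and its groups overlapped (difference 1.12, SE 0.46).

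The 250 bases before the start of Bnip3 (RefSeq, GRCm38.p6, chr7:138909507-138909756, minus strand) hold the hypoxia response core ACGTG on both strands, as the palindrome in capitals, 108 bases before the start.
Bnip3: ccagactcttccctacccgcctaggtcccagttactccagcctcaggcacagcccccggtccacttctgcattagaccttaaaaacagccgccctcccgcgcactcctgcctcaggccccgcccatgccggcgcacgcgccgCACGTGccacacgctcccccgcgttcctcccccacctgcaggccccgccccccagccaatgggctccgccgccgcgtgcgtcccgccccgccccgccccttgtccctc
ACGTG on either strand was found in 14 of the 19 HIF-1 targets with a promoter entry and in 16.6% of all 32851 entries.

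Among 18 glycolysis genes, none of them on the list of HIF-1 targets, 8 lay wholly above and 0 below. The median difference was 0.47 (0.27 without 1 mg/kg sample 1, 0.33 without both uneven libraries). Their summed level was 2610, 2815.5 and 2145 FPKM at 0.1 mg/kg and 5095, 2969 and 3312 FPKM at 1 mg/kg. With vehicle it was 2931 to 3156 FPKM, so every 0.1 mg/kg library was below vehicle and 1 mg/kg sample 2 within its range. Tpi1, triosephosphate isomerase, was at 285, 300.3 and 264 FPKM at 0.1 mg/kg and 499.9, 376 and 376 FPKM at 1 mg/kg against 272 ± 14.2 with vehicle. Aldoa, an aldolase, was at 517, 412 and 436 FPKM at 0.1 mg/kg and 883, 564 and 668 FPKM at 1 mg/kg (vehicle 302 ± 25.04). Ldha, which makes lactate, was at 366, 385 and 309.9 FPKM at 0.1 mg/kg and 764, 438 and 489 FPKM at 1 mg/kg (vehicle 471 ± 31.9), so that its 0.1 mg/kg values were below vehicle and those of 1 mg/kg samples 2 and 3 near it. Pgk1 (difference 0.89, 0.76 without both uneven libraries), Pfkl (0.58), Gpi1 (0.54), Hk2 (0.61) and Hk1 (0.18) completed the genes without overlap. Expression of nuclear genes for oxidative phosphorylation was slightly lower, with 14 of 31 wholly below (13 after quantile normalisation, 10 with equal medians) and 0 above, but the median difference was only −0.16 and, without both uneven libraries, −0.08. Sdhb, a succinate dehydrogenase subunit, was at 42.95, 54.8 and 46.7 FPKM at 0.1 mg/kg and 35.5, 33.4 and 36.8 FPKM at 1 mg/kg, the lowest p of that list.

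Many immediate early genes were higher at 1 mg/kg. Outside the AP-1 family, 29 of 32 listed genes passed the filter, 17 lay wholly above the 0.1 mg/kg values and 0 below, and the median difference was 0.69. It was 0.45 without 1 mg/kg sample 1 and 0.37 without both uneven libraries, where 18 genes were wholly above, beside 24.5% of all tested genes. The median was 0.70 above the vehicle mean at 0.1 mg/kg and 1.34 at 1 mg/kg.

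Ccn1, a secreted matricellular protein gene, was at 94.7, 66.3 and 64.7 FPKM at 0.1 mg/kg and 446, 197 and 209 FPKM at 1 mg/kg against 28.6 ± 6.81 with vehicle. Its difference was 1.82, SE 0.33, or 1.36 without both uneven libraries. Its relative Ccn2 was at 3.77, 2.99 and 3.87 FPKM at 0.1 mg/kg and 6.66, 7.65 and 9.35 FPKM at 1 mg/kg (vehicle 2.497 ± 0.224), and here 1 mg/kg sample 1 was the lowest of its group. Btg2, an antiproliferative gene, was at 10.7, 8.04 and 8.69 FPKM at 0.1 mg/kg and 20.5, 15.3 and 15.5 FPKM at 1 mg/kg. Ier2 was at 81.3, 54.8 and 67.4 FPKM at 0.1 mg/kg and 194, 124 and 132 FPKM at 1 mg/kg. The kinase gene Sgk1, which regulates sodium channels and pumps, was at 37.6, 22.2 and 26.5 FPKM at 0.1 mg/kg and 177, 68.2 and 59.1 FPKM at 1 mg/kg (vehicle 11.9 ± 0.969). The factor genes Klf4 (difference 1.09), Klf2 (0.94), Nfil3 (0.82) and Egr1 (1.04) were likewise without overlap. Myc and Cdkn1a were high in the uneven library of each dose. Myc, the growth-promoting factor, was at 43.7, 197 and 49.1 FPKM at 0.1 mg/kg and 196, 61.8 and 62.3 FPKM at 1 mg/kg against 218 ± 27.7 with vehicle, so the uneven libraries were near the vehicle level and the other 4 far below it. Cdkn1a, the p21 cell cycle inhibitor, was at 25.6, 40.8 and 18.2 FPKM at 0.1 mg/kg and 67.6, 24.3 and 29.5 FPKM at 1 mg/kg (vehicle 41.6 ± 7.11), again highest in those 2 libraries.

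Of the 15 AP-1 subunit genes, 7 lay wholly above the 0.1 mg/kg values and 2 wholly below. Their median difference was 0.51, but 0.25 without 1 mg/kg sample 1 and 0.31 without both uneven libraries. In the last setting 8 were wholly above and 3 wholly below, beside 24.5% and 24.7% of all tested genes. Fosb was at 40.9, 18.6 and 23.7 FPKM at 0.1 mg/kg and 189, 81.7 and 104 FPKM at 1 mg/kg against 0.575 ± 0.0982 with vehicle, the difference between the doses being 2.11, SE 0.38 (1.53 without both uneven libraries). Fos was at 152, 58.2 and 60.1 FPKM at 0.1 mg/kg and 477, 235 and 245 FPKM at 1 mg/kg (vehicle 10.4 ± 2.86). For both genes every 1 mg/kg value exceeded every 0.1 mg/kg value, and every 0.1 mg/kg value exceeded vehicle. Jun (difference 1.10), Junb (0.90), Jund (0.32), Fosl2 (0.51) and Mafk (0.39) were the others above. Atf3 was at 37.1, 17.8 and 19.8 FPKM at 0.1 mg/kg and 108, 28.4 and 40.6 FPKM at 1 mg/kg and overlapped, as did Maff (0.73), Fosl1 (0.60), Jdp2 (0.07) and Batf3 (−0.83). The 2 below were Batf, a factor of activated lymphocytes, at 8.79, 5.45 and 6.39 FPKM at 0.1 mg/kg and 2.74, 4.56 and 4.18 FPKM at 1 mg/kg. Batf2, an interferon-induced factor of macrophages, was at 18.5, 10.7 and 24.5 FPKM at 0.1 mg/kg and 6.65, 10.4 and 8.87 FPKM at 1 mg/kg.

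The EGF receptor ligands Ereg, Hbegf and Areg were higher at 1 mg/kg. Ereg was at 8.93, 6.18 and 4.94 FPKM at 0.1 mg/kg and 29.4, 11.2 and 14.6 FPKM at 1 mg/kg (difference 1.26, SE 0.36). Hbegf was at 6.69, 7.99 and 4.96 FPKM at 0.1 mg/kg and 23.3, 10.7 and 11.4 FPKM at 1 mg/kg. Areg was at 14.4, 21.8 and 13.01 FPKM at 0.1 mg/kg and 63.2, 22.4 and 23.4 FPKM at 1 mg/kg. The groups of all 3 genes were apart, but Areg in 0.1 mg/kg sample 2 nearly met the lowest 1 mg/kg value. The receptor gene Erbb2 was also without overlap at 7.61, 7.81 and 6.67 FPKM at 0.1 mg/kg and 8.41, 9.09 and 8.49 FPKM at 1 mg/kg, a small difference (0.21), whereas Erbb3 (−0.05) and the ligand gene Tgfa (0.04) overlapped. Of 11 genes found on this list, 6 passed the filter, and Egf, Btc, Epgn, Nrg1 and Egfr were below it. Egfr was at 0.451, 2.23 and 0.402 FPKM at 0.1 mg/kg and 1.25, 0.524 and 0.377 FPKM at 1 mg/kg and was highest in the 2 uneven libraries.

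Oxidant-response genes showed a smaller difference, with 5 of 19 NRF2 and glutathione genes wholly above, 0 below and a median of 0.16 (0.24 without 0.1 mg/kg sample 2, 0.10 without 0.1 mg/kg sample 3, 0.28 without 1 mg/kg sample 2). Hmox1, which degrades heme, was at 325, 178 and 151 FPKM at 0.1 mg/kg and 926, 349 and 619.8 FPKM at 1 mg/kg (vehicle 127 ± 69.7), a difference of 1.50, SE 0.42. Gclm and Gclc, the subunits of the enzyme that limits glutathione synthesis, differed by 0.70 and 0.36, and Gstm1 by 0.44. Of 7 tested chemokine and receptor genes of neutrophil attraction, 2 were wholly above. Cxcl1, a ligand, was at 25.6, 20.6 and 12.03 FPKM at 0.1 mg/kg and 193, 36.1 and 54.7 FPKM at 1 mg/kg and did not overlap (difference 1.91, SE 0.61). The related ligand gene Cxcl2 was at 119, 38.4 and 26.1 FPKM at 0.1 mg/kg and 362, 89.9 and 159 FPKM at 1 mg/kg, and there 0.1 mg/kg sample 1 exceeded 1 mg/kg sample 2. Of the others, Ppbp was without overlap (0.91), and Cxcl3 (1.16), Pf4 (0.13), Cxcl5 (−0.03) and the receptor gene Cxcr2 (0.28) overlapped. Ptgs2, the inducible cyclooxygenase, was at 35.8, 20.7 and 11.04 FPKM at 0.1 mg/kg and 129, 38.6 and 43.1 FPKM at 1 mg/kg. The cytokine gene Il6 was at 2.37, 1.16 and 0.7701 FPKM at 0.1 mg/kg and 3.02, 1.299 and 1.27 FPKM at 1 mg/kg with overlap.

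The 22 tested neutrophil markers had a median difference of 0.66 (1.04 without 0.1 mg/kg sample 1, 0.37 without 0.1 mg/kg sample 3), but the groups overlapped for every one of them. Their summed level was 1065, 377 and 229 FPKM at 0.1 mg/kg, 724, 837 and 1453 FPKM at 1 mg/kg and 106 to 279 FPKM with vehicle, none of the 24 markers being at 0 in all 6 digoxin libraries. S100a9 was at 425, 150.5 and 70.5 FPKM at 0.1 mg/kg and 297, 345 and 651 FPKM at 1 mg/kg. The lowest 1 mg/kg library was above 2 of the 3 libraries at 0.1 mg/kg, and sample 1 at 0.1 mg/kg was as high as the 1 mg/kg group. The part of these cells in the chemokine values was not tested.

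**Figure D3:**
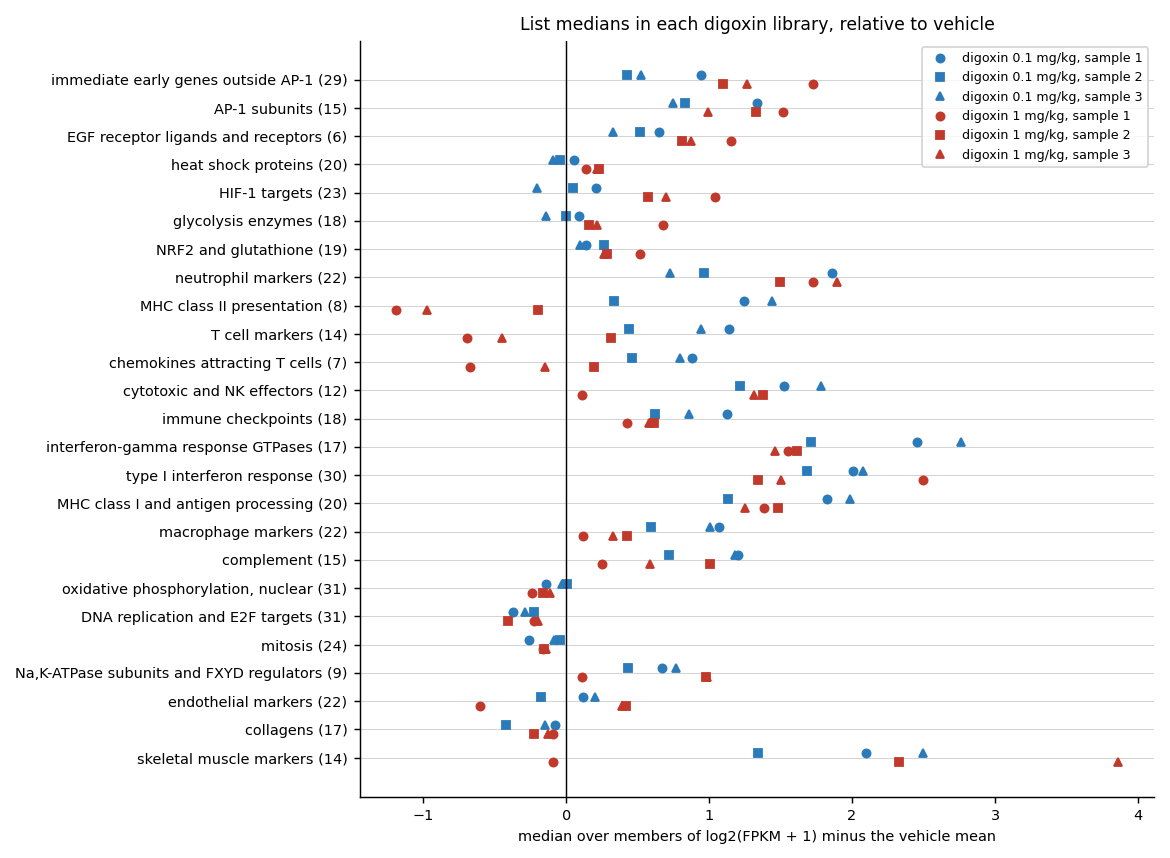
Median over the tested members of each list of log2(FPKM + 1) minus the vehicle mean (horizontal axis), for each library at 0.1 mg/kg (blue) and 1 mg/kg (red), with symbols for samples 1 to 3. HIF-1 targets lie near 0 at 0.1 mg/kg and above it at 1 mg/kg. Glycolysis enzymes lie near 0 at 0.1 mg/kg. At 1 mg/kg their sample 1 (0.67) lies well above samples 2 (0.16) and 3 (0.22). MHC class II genes and T cell markers lie above 0 at 0.1 mg/kg, and every 1 mg/kg library lies below every 0.1 mg/kg library.

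MHC class II genes had the largest median difference of the 62 lists. Of 12 listed genes, 8 passed the filter, 7 of these lay wholly below the 0.1 mg/kg values and 0 above, and the median difference was −1.82 (−1.92 without both uneven libraries). Counting all 12 listed genes regardless of the filter, 9 were wholly below, beside 7.13% of the 34509 genes above 0 in a digoxin library. The same 8 genes stood at a median of 1.00 relative to vehicle with the lower dose and −0.75 with the higher dose.

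H2-Aa, the alpha chain of the class II molecule I-A, was at 141, 72.7 and 170.4 FPKM at 0.1 mg/kg and 10.4, 43.99 and 16.1 FPKM at 1 mg/kg against 67.1 ± 21.2 with vehicle. The difference was −2.56, SE 0.55 (limma adjusted p = 0.393), and 1 mg/kg sample 2 was the highest of its group. H2-Ab1, the beta chain, was at 185, 91.97 and 216 FPKM at 0.1 mg/kg and 18.6, 54.5 and 23.3 FPKM at 1 mg/kg. H2-Eb1 of the I-E molecule was at 206, 102 and 244 FPKM at 0.1 mg/kg and 13.9, 63.2 and 22.6 FPKM at 1 mg/kg. Cd74, the invariant chain that guides class II molecules through the cell, was at 775, 378 and 939 FPKM at 0.1 mg/kg and 101, 249.8 and 105 FPKM at 1 mg/kg (vehicle 313 ± 96.3). For all 4 genes 0.1 mg/kg sample 2 lay in the vehicle range, the other 0.1 mg/kg samples were above it, and the 1 mg/kg groups were lowest in samples 1 and 3. The peptide-loading genes H2-DMa (−1.41), H2-DMb1 (−1.15) and H2-DMb2 (−0.86) were also wholly below, and Ctss, a protease that cleaves the invariant chain, overlapped (−0.52). H2-Ea, H2-Oa, H2-Ob and Ciita did not pass the filter. Ciita, the master regulator of class II transcription, was at 1.78, 0.984 and 2.26 FPKM at 0.1 mg/kg and 0.218, 0.452 and 0.264 FPKM at 1 mg/kg, again without overlap.

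Class II promoters carry a CCAAT-related Y box and a cAMP-response-like X2 box. The 250 bases before the start of H2-Aa (RefSeq, GRCm38.p6, chr17:34287824-34288073, minus strand) are shown with TGACGTCA, 74 bases before the start, and the reverse complement of CCAAT, 48 bases before the start, in capitals.
H2-Aa: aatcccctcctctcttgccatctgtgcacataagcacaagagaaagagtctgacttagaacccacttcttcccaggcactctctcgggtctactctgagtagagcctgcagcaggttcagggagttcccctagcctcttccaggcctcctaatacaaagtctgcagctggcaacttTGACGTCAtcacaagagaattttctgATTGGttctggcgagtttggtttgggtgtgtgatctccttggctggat
CCAAT on either strand was found in 5 of the 6 tested class II genes with a promoter entry and in 33.8% of all 32851 entries. TGACGTCA, which reads the same on both strands, was found in 1 of the 6 and in 1.55% of all entries.

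T cell markers were lower at 1 mg/kg. Of 20 markers, 14 passed the filter, 2 of them through the 0.1 mg/kg libraries alone. Over all 20 markers, 16 lay wholly below the 0.1 mg/kg values and 0 above, beside 7.13% and 4.51% of the 34509 genes above 0 in a digoxin library. The summed level of the 20 markers was 103, 63.5 and 89.2 FPKM at 0.1 mg/kg, 17.4, 50.4 and 30.1 FPKM at 1 mg/kg and 30.9 to 37.8 FPKM with vehicle. The 1 mg/kg libraries thus lay below every 0.1 mg/kg library, and samples 1 and 3 also below the vehicle range. Trbc1, a constant region of the T cell receptor beta chain, was at 18.8, 12.2 and 19.3 FPKM at 0.1 mg/kg and 1.86, 7.06 and 4.52 FPKM at 1 mg/kg (vehicle 3.76 ± 0.249), with a difference of −1.79, SE 0.38 and −1.59 without both uneven libraries. Trac, of the alpha chain, was at 14.7, 8.49 and 12.3 FPKM at 0.1 mg/kg and 2.83, 7.17 and 3.64 FPKM at 1 mg/kg. Trbc2 was at 20.7, 11.3 and 13.4 FPKM at 0.1 mg/kg and 1.37, 7.66 and 4.102 FPKM at 1 mg/kg.

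The CD3 genes Cd3g and Cd3d, which encode signalling chains of the receptor, differed by −1.13, SE 0.27 and −1.16, SE 0.28. Cd8a, the coreceptor of cytotoxic T cells, was at 4.52, 2.71 and 4.52 FPKM at 0.1 mg/kg and 0.6898, 1.85 and 0.719 FPKM at 1 mg/kg (vehicle 1.77 ± 0.165). Cd4, the coreceptor of helper T cells, was at 1.75, 1.02 and 1.51 FPKM at 0.1 mg/kg and 0.135, 0.844 and 0.404 FPKM at 1 mg/kg (vehicle 1.36 ± 0.282). Neither overlapped between the doses. The signalling genes Lck (−0.85) and Zap70 (−0.74), the adhesion gene Cd2 (−1.02) and the factor gene Tcf7 (−0.48) were wholly below as well. Cd8b1 (−0.97) and Cd28 (−0.46) overlapped. Foxp3, the factor of regulatory T cells, was at 0.255, 0.112 and 0.197 FPKM at 0.1 mg/kg and 0.0879, 0.14001 and 0.102 FPKM at 1 mg/kg, too low to test. Ifng, the interferon-gamma gene, was below the filter at 1.12, 0.593 and 1.21 FPKM at 0.1 mg/kg and 0.1097, 0.247 and 0.152 FPKM at 1 mg/kg against 0.1601 ± 0.0547 with vehicle. Its 1 mg/kg values were near vehicle and all 0.1 mg/kg values were above them.

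Chemokines that attract T cells were lower too, with 4 of 7 tested genes wholly below and 0 above. Cxcl9 was at 73.1, 29.8 and 90.7 FPKM at 0.1 mg/kg and 4.05, 25.3 and 9.0999 FPKM at 1 mg/kg (vehicle 8.598 ± 1.904), a difference of −2.43, SE 0.66, although 1 mg/kg sample 2 came near 0.1 mg/kg sample 2. Ccl5 was at 51.05, 29.4 and 53.4 FPKM at 0.1 mg/kg and 8.26, 20.6 and 11.6 FPKM at 1 mg/kg. Cxcl16 was at 36.03, 18.4 and 30.4 FPKM at 0.1 mg/kg and 12.3, 12.6 and 11.3 FPKM at 1 mg/kg. The receptor gene Cxcr6 was at 3.08, 2.26 and 3.395 FPKM at 0.1 mg/kg and 0.515, 1.29 and 0.511 FPKM at 1 mg/kg. Cxcl10 (−0.68) and the receptor gene Cxcr3 (−0.48) overlapped. Without both uneven libraries all 7 genes were wholly below, beside 24.7% of all tested genes.

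The cytotoxic effectors divided into separate patterns. Of 19 genes listed, 12 passed the filter and 6 of these were wholly below, but 4 of the 12 means were higher. The median was −0.46, and 0.00 without 1 mg/kg sample 1. It was −0.82 leaving out 1 mg/kg sample 2, −0.81 leaving out 1 mg/kg sample 3, and −0.10 without both uneven libraries. Gzmb, the main granzyme, was at 24.1, 18.6 and 29.9 FPKM at 0.1 mg/kg and 6.38, 15.8 and 15.3 FPKM at 1 mg/kg (vehicle 5.56 ± 0.9102). Prf1, perforin, was at 6.38, 5.55 and 6.77 FPKM at 0.1 mg/kg and 1.16, 4.53 and 4.87 FPKM at 1 mg/kg (vehicle 1.11 ± 0.181). For both genes 1 mg/kg sample 1 was near vehicle and samples 2 and 3 were only slightly below the 0.1 mg/kg group. Nkg7 (−1.25), Ctsw (−1.02) and Klrd1 (−1.15), genes of cytotoxic granules and an NK receptor, were wholly below like Ccl5, which this list also holds. Gzmd was at 11.8, 18.5 and 18.8 FPKM at 0.1 mg/kg and 2.65, 32.2 and 41.6 FPKM at 1 mg/kg against 0.921 ± 0.6202 with vehicle, so 1 mg/kg sample 1 was the lowest digoxin library and samples 2 and 3 were the highest. Gzme at 8.53, 7.88 and 8.67 FPKM at 0.1 mg/kg and 1.395, 13.6 and 17.6 FPKM at 1 mg/kg. Gzmf was at 9.85, 19.7 and 17.7 FPKM at 0.1 mg/kg and 2.16, 30.8 and 33.3 FPKM at 1 mg/kg. Gzmc was at 8.14, 12.9 and 19.5 FPKM at 0.1 mg/kg and 5.59, 25.3 and 32.2 FPKM at 1 mg/kg had the same order. The difference of Gzmd was 0.02 (SE 0.90), and 1.24 without both uneven libraries. The other tested members, Gzma and Eomes, overlapped.

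Among 18 tested checkpoint genes, 5 were wholly below and 0 above. Pdcd1, which encodes PD-1, was at 5.901, 3.602 and 3.87 FPKM at 0.1 mg/kg and 0.245, 2.27 and 1.28 FPKM at 1 mg/kg (vehicle 0.527 ± 0.254). Lag3 was at 6.17, 3.5998 and 6.37 FPKM at 0.1 mg/kg and 1.76, 2.58 and 2.24 FPKM at 1 mg/kg (vehicle 1.37 ± 0.336). Sirpa, the myeloid receptor of CD47, differed by −0.64, the costimulatory ligand gene Cd86 by −0.53 and Tnfrsf18 by −0.57, all without overlap. Tnfrsf4 (−0.57) overlapped. Ctla4 was at 1.97, 0.9795 and 1.0997 FPKM at 0.1 mg/kg and 0.589, 1.31 and 1.197 FPKM at 1 mg/kg. Cd274, which encodes the ligand PD-L1, was at 27.2, 10.8 and 16.95 FPKM at 0.1 mg/kg and 32.3, 12.1 and 12.9 FPKM at 1 mg/kg (vehicle 3.51 ± 0.208), with a difference of 0.00, a 95% interval of −1.07 to 1.08 and −0.74 without both uneven libraries. Both Ctla4 and Cd274 overlapped between the doses and were above vehicle in every digoxin library.

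B cell markers gave a mixed picture. Of 15 markers, 10 passed the filter, 2 of them through the 0.1 mg/kg libraries alone, and over all 15 markers 5 were wholly below. Cd22, an inhibitory receptor of B cells, was at 1.65, 2.397 and 1.35 FPKM at 0.1 mg/kg and 0.244, 0.264 and 0.181 FPKM at 1 mg/kg against 0.412 ± 0.0543 with vehicle. Ighm, the IgM heavy chain, was at 10.1, 10.3 and 11.1 FPKM at 0.1 mg/kg and 1.54, 3.58 and 6.63 FPKM at 1 mg/kg (difference −1.36, SE 0.37), and Cd79b differed by −0.93. Igkc, the kappa light chain, ranged widely within each dose and overlapped, at 143, 58.9 and 283 FPKM at 0.1 mg/kg and 8.32, 161 and 42.8 FPKM at 1 mg/kg. Ighg2b (−0.92), Ighg2c (−1.17), Jchain (−0.92), Cd79a (−0.25), Xbp1 (0.06) and Pax5 (−0.03) also overlapped.

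The GTPases induced by interferon-gamma were above vehicle at both doses and lower at 1 mg/kg than at 0.1 mg/kg. All 17 tested members had a negative difference, 8 were wholly below (6 after quantile normalisation or equal medians) and 0 above, and the median was −0.72. Without both uneven libraries the median was −1.05 and all 17 were wholly below. Relative to vehicle the median was 2.28 with the lower dose and 1.54 with the higher dose. Gbp2b, a guanylate-binding protein gene, had the lowest p of the comparison. It was at 3.503, 2.83 and 5.04 FPKM at 0.1 mg/kg, 0.109, 0.227 and 0.0525 FPKM at 1 mg/kg and 0.146, 0.0142 and 0.171 FPKM in the vehicle libraries, so the 1 mg/kg and vehicle values overlapped and the 0.1 mg/kg group stood above both. Its difference was −2.06, SE 0.19 (limma adjusted p = 0.291), and it passed the filter through the 0.1 mg/kg libraries alone. Gbp2b is one of several closely related genes, and how reads were shared among them is not given in the sources used here.

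Other members did not return to the vehicle level. Iigp1 was at 34.5, 17.02 and 40.99 FPKM at 0.1 mg/kg and 10.8, 13.2 and 10.9 FPKM at 1 mg/kg (vehicle 4.54 ± 0.839). Gbp8 was at 19.2, 8.59 and 19.3 FPKM at 0.1 mg/kg and 3.43, 8.21 and 5.41 FPKM at 1 mg/kg (vehicle 1.44 ± 0.263). Gbp4 was at 19.4, 10.9 and 22.5 FPKM at 0.1 mg/kg and 7.63, 10.1 and 9.48 FPKM at 1 mg/kg (vehicle 1.96 ± 0.385). In all 3 genes every 1 mg/kg value was above vehicle, and 0.1 mg/kg sample 2 came close to the 1 mg/kg values. Tgtp1 (−0.75) and Iigp1c (−0.82) were also without overlap. Igtp, an immunity-related GTPase, was at 104, 63.6 and 137 FPKM at 0.1 mg/kg and 69.9, 55.8 and 47.2 FPKM at 1 mg/kg (vehicle 11.6 ± 1.06), and its groups overlapped.

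The 250 bases before the start of Igtp (RefSeq, GRCm38.p6, chr11:58199306-58199555, plus strand) hold both interferon patterns within a short stretch. Capitals mark TTCNNNGAA, the gamma-activated site, 45 bases before the start, and GAAA, NN and GAAA in a row, the interferon-stimulated response element, 34 bases before the start.
Igtp: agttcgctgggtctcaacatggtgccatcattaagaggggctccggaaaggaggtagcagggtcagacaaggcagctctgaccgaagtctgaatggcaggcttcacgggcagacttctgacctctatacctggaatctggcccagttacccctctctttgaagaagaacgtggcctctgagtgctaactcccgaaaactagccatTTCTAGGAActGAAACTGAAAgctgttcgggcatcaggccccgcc
The interferon-stimulated response element was found on either strand in 10 of the 11 members with a promoter entry and in 2.98% of all 32851 entries, and TTCNNNGAA, which reads the same on both strands, in 6 of the 11 and in 7.02%.

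Type I interferon genes were far above vehicle at both doses and mostly overlapped between them. Of 30 genes, 1 was wholly below and 0 above, and the median difference was −0.14. That median changed sign with 1 library, being 0.07 without 1 mg/kg sample 2, −0.04 without 1 mg/kg sample 3, −0.03 without 0.1 mg/kg sample 3, −0.26 without 0.1 mg/kg sample 2, or −0.40 when 1 mg/kg sample 1 was left out. Isg15, a ubiquitin-like modifier, was at 198, 155 and 224 FPKM at 0.1 mg/kg and 325, 132 and 156 FPKM at 1 mg/kg against 16.9 ± 2.72 with vehicle, with 1 mg/kg sample 1 the highest of the 6. Mx1 was at 18.9, 15.4 and 22.7 FPKM at 0.1 mg/kg and 18.1, 9.67 and 12.3 FPKM at 1 mg/kg (vehicle 1.73 ± 0.205). The gene without overlap was Eif2ak2, the kinase PKR, at 11.2, 11.2 and 13.9 FPKM at 0.1 mg/kg and 9.01, 9.35 and 9.49 FPKM at 1 mg/kg. Without both uneven libraries the median was −0.53 and 29 of 30 genes were wholly below, beside 24.7% of all tested genes. The members of this list thus moved together when those libraries were left out. MHC class I and antigen-processing genes were similar, with 2 of 20 wholly below (Psmb10, −0.79, and Erap1, −0.29), and a median of −0.25. That median was −0.05 without 0.1 mg/kg sample 3, −0.45 without 0.1 mg/kg sample 2 and −0.44 without both uneven libraries, where 18 of 20 genes were wholly below. The difference between the interferon-gamma and type I lists was not tested.

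Macrophage markers were lower at 1 mg/kg in part. Of 22 markers, all of which passed the filter, 10 were wholly below (9 after quantile normalisation or equal medians) and 0 above, with a median of −0.55 (−0.65 without both uneven libraries). Their summed level was 5750.0, 4446 and 6614 FPKM at 0.1 mg/kg, 2849.7, 4935 and 3874 FPKM at 1 mg/kg and 3719 to 4110.1 FPKM with vehicle, with no marker at 0 in all 6 digoxin libraries, and the sums overlapped between the doses. Aif1, an actin-binding protein of macrophages, was at 48.6, 27.4 and 51.3 FPKM at 0.1 mg/kg and 11.9, 18.7 and 16.2 FPKM at 1 mg/kg (vehicle 15.5 ± 1.04), the lowest p of the list (difference −1.36, SE 0.27). Fcgr4, an activating Fc receptor, was at 117, 57.8 and 124 FPKM at 0.1 mg/kg and 31.1, 49.8 and 37.5 FPKM at 1 mg/kg (vehicle 15.9 ± 1.57). Cx3cr1, the fractalkine receptor, was at 1.85, 3.66 and 3.43 FPKM at 0.1 mg/kg and 1.41, 0.498 and 0.488 FPKM at 1 mg/kg against 16.3 ± 3.47 with vehicle, so it was below vehicle at both doses and lowest in 1 mg/kg samples 2 and 3. Of the defining genes, Csf1r, the receptor of macrophage colony-stimulating factor, was at 54.1, 38.7 and 54.98 FPKM at 0.1 mg/kg and 30.3, 38.4 and 30.2 FPKM at 1 mg/kg (difference −0.56). Adgre1, which encodes F4/80, was at 31.7, 19.8 and 31.1 FPKM at 0.1 mg/kg and 18.5, 16.9 and 16.9 FPKM at 1 mg/kg (difference −0.60). For Csf1r the highest 1 mg/kg value nearly reached the lowest 0.1 mg/kg value. The complement gene C1qc differed by −0.94, C1qa by −0.94 and the signalling adaptor Fcer1g by −0.62. The part of macrophage and T cell numbers in the MHC class II values was not tested.

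**Figure D4:**
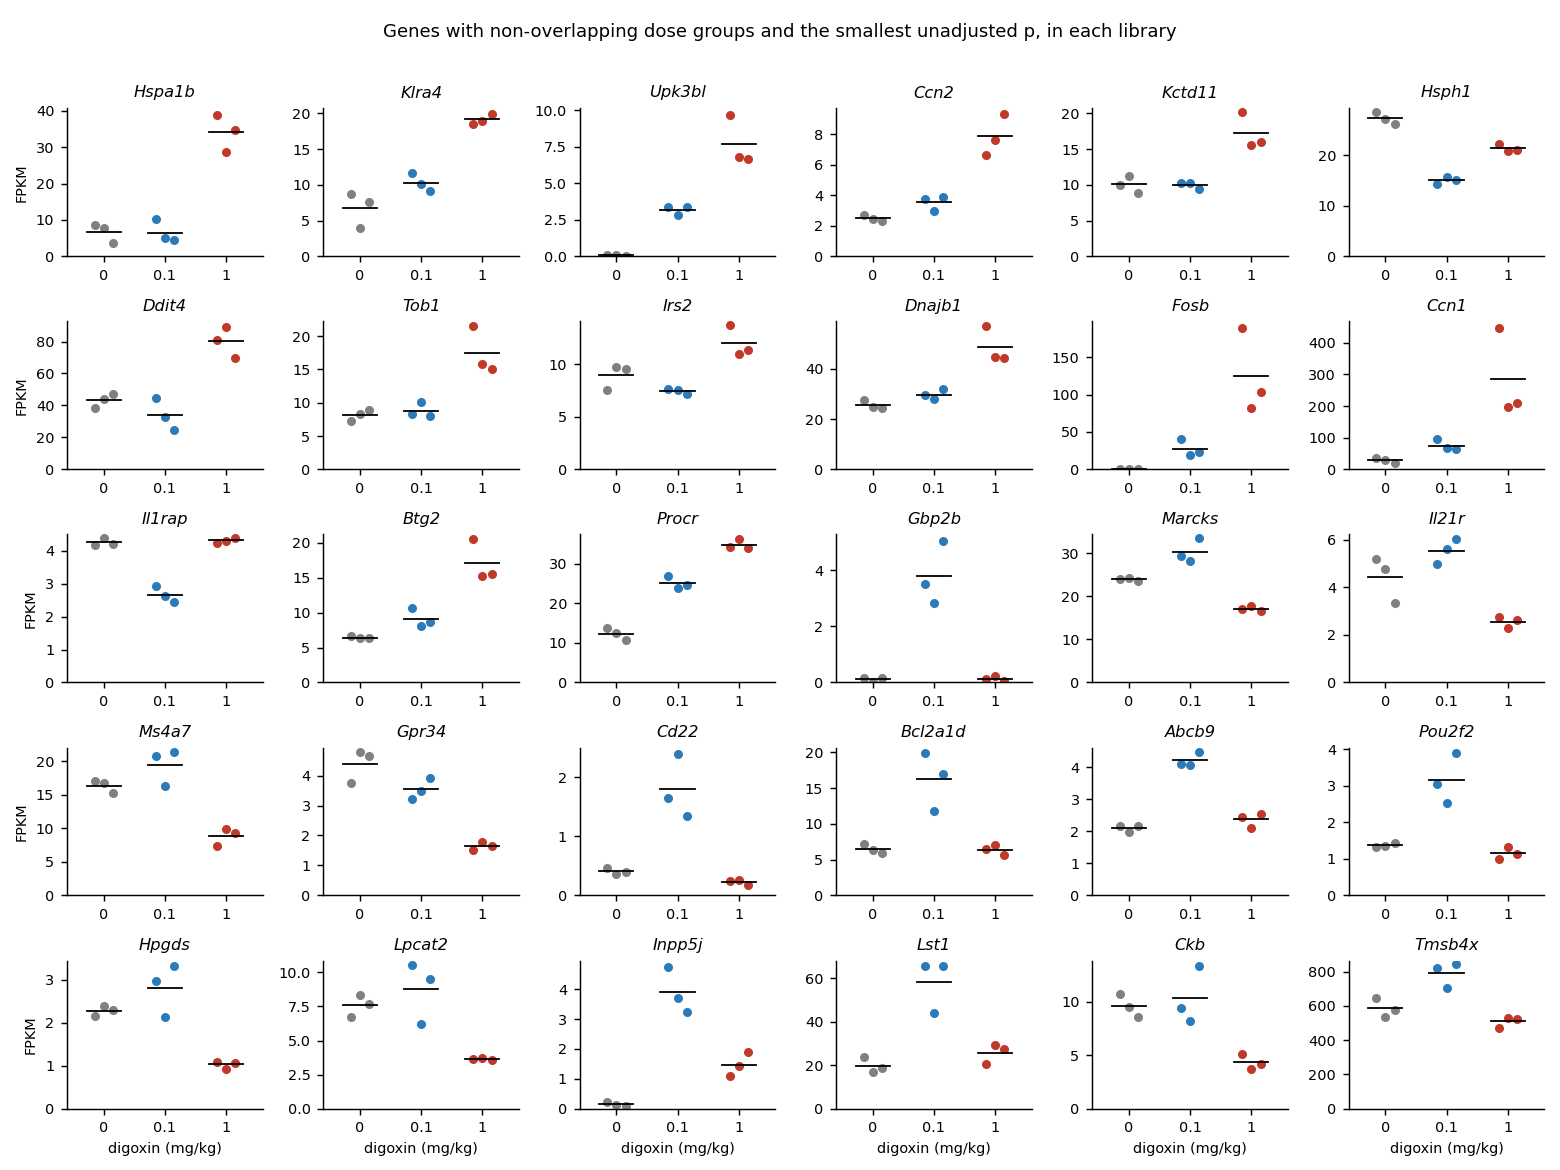
FPKM (vertical axes, each starting at 0) in the vehicle (grey), 0.1 mg/kg (blue) and 1 mg/kg (red) libraries, 3 per group, for the 30 genes with the smallest unadjusted p among genes whose dose groups did not overlap, 15 per direction. Points are libraries in the order of samples 1 to 3 and bars are group means. Gbp2b, Bcl2a1d and Lst1 are highest at 0.1 mg/kg and near vehicle at 1 mg/kg, while Fosb and Ccn1 are highest at 1 mg/kg.

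The 15 genes lowest in p among those lower at 1 mg/kg include Gbp2b and Cd22, described above. Ms4a7, a membrane protein of macrophages, was at 20.8, 16.4 and 21.4 FPKM at 0.1 mg/kg and 7.31, 9.97 and 9.29 FPKM at 1 mg/kg (vehicle 16.3 ± 0.924). Gpr34, a lysophospholipid receptor of macrophages and microglia, was at 3.21, 3.499 and 3.93 FPKM at 0.1 mg/kg and 1.53, 1.79 and 1.64 FPKM at 1 mg/kg (vehicle 4.39 ± 0.561). Both were lower at 1 mg/kg than in any other library of the study. Lst1, a leukocyte transcript, was at 65.7, 43.99 and 65.7 FPKM at 0.1 mg/kg and 20.5, 29.2 and 27.6 FPKM at 1 mg/kg (vehicle 19.8 ± 3.56). Bcl2a1d, an antiapoptotic gene of leukocytes with near-identical copies, was at 19.9, 11.8 and 17.01 FPKM at 0.1 mg/kg and 6.47, 7.03 and 5.72 FPKM at 1 mg/kg (vehicle 6.51 ± 0.616). In these 2 genes the 1 mg/kg values were near vehicle and the 0.1 mg/kg values above it. Il21r, the interleukin-21 receptor, was at 4.996, 5.598 and 6.03 FPKM at 0.1 mg/kg and 2.75, 2.28 and 2.61 FPKM at 1 mg/kg. Pou2f2, the lymphoid factor Oct-2, was at 3.05, 2.52 and 3.898 FPKM at 0.1 mg/kg and 0.988, 1.32 and 1.14 FPKM at 1 mg/kg. Hpgds, the hematopoietic prostaglandin D synthase, was at 2.97, 2.14 and 3.33 FPKM at 0.1 mg/kg and 1.09, 0.928 and 1.07 FPKM at 1 mg/kg. Lpcat2, which remodels phospholipids, was at 10.5, 6.19 and 9.54 FPKM at 0.1 mg/kg and 3.63, 3.69 and 3.55 FPKM at 1 mg/kg. The 1 mg/kg values of these genes varied little and all lay below vehicle.

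Marcks, a membrane-bound substrate of protein kinase C that binds actin and calmodulin, was at 29.3, 28.1 and 33.5 FPKM at 0.1 mg/kg, 17.1, 17.7 and 16.6 FPKM at 1 mg/kg and 23.9, 24.3 and 23.6 FPKM with vehicle. The 0.1 mg/kg group was above vehicle and the 1 mg/kg group below it, each without overlap, and the uneven libraries were not set apart from their groups. Its difference was −0.79, SE 0.09 (limma adjusted p = 0.393, and 0.0266 in the fit of all 9 libraries). Tmsb4x, an actin-sequestering thymosin, was at 819, 702 and 845 FPKM at 0.1 mg/kg and 470.3, 532 and 525 FPKM at 1 mg/kg (vehicle 586 ± 55.8). Ckb, the brain form of creatine kinase, was at 9.403, 8.16 and 13.4 FPKM at 0.1 mg/kg and 5.14, 3.68 and 4.13 FPKM at 1 mg/kg (vehicle 9.58 ± 1.05). The peptide transporter gene Abcb9 (difference −0.63) and the inositol phosphatase gene Inpp5j (−0.99) completed the group, and both were nearer to vehicle at 1 mg/kg than at 0.1 mg/kg.

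Among the 15 genes lowest in p that were higher at 1 mg/kg, 8 belong to the heat shock, HIF-1 and immediate early lists above (the genes Hspa1b, Hsph1, Dnajb1, Ddit4, Fosb, Ccn1, Ccn2 and Btg2). Klra4, a Ly49 receptor gene of NK cells with close relatives, was at 11.7, 10.1 and 9.12 FPKM at 0.1 mg/kg and 18.6, 18.99 and 19.9 FPKM at 1 mg/kg (vehicle 6.79 ± 2.55), whereas the NK receptor gene Klrd1 was lower at 1 mg/kg. Upk3bl, a uroplakin-like gene, was at 3.37, 2.84 and 3.401 FPKM at 0.1 mg/kg and 9.66, 6.81 and 6.65 FPKM at 1 mg/kg, with 0.0619 ± 0.0325 in vehicle. Procr, the endothelial protein C receptor, was at 26.8, 23.9 and 24.7 FPKM at 0.1 mg/kg and 34.1, 36.1 and 34.002 FPKM at 1 mg/kg (vehicle 12.3 ± 1.496). Tob1, an antiproliferative relative of Btg2, was at 8.35, 10.1 and 8.03 FPKM at 0.1 mg/kg and 21.5, 15.8 and 15.1 FPKM at 1 mg/kg. Kctd11, an adaptor for ubiquitin ligases, was at 10.3, 10.3 and 9.38 FPKM at 0.1 mg/kg and 20.1, 15.6 and 15.98 FPKM at 1 mg/kg. The insulin receptor substrate gene Irs2 was at 7.64, 7.55 and 7.18 FPKM at 0.1 mg/kg and 13.7, 10.9 and 11.3 FPKM at 1 mg/kg. Il1rap, the shared chain of the interleukin-1 receptor, was at 2.93, 2.64 and 2.43 FPKM at 0.1 mg/kg and 4.25, 4.31 and 4.3996 FPKM at 1 mg/kg. In that gene the 1 mg/kg values matched the vehicle range (4.26 ± 0.112), and the 0.1 mg/kg values were below it.

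The genes of the drug's target overlapped between the doses. None of the 9 tested genes of the Na,K-ATPase and its FXYD regulators lay wholly above or below, and the median difference was 0.07. Atp1b1, a beta subunit, was at 6.04, 3.56 and 4.19 FPKM at 0.1 mg/kg and 4.65, 6.66 and 6.59 FPKM at 1 mg/kg (vehicle 0.782 ± 0.132), with a difference of 0.33, SE 0.20. Atp1b3, another beta subunit, was at 90.6, 82.5 and 105 FPKM at 0.1 mg/kg and 83.03, 75.3 and 72.9 FPKM at 1 mg/kg (vehicle 76.7 ± 0.994), with a difference of −0.26, SE 0.11. Atp1b2 (0.07), Fxyd1 (0.25), Fxyd2 (−0.29) and Fxyd5 (−0.11) overlapped as well.

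Of 31 DNA replication and E2F target genes, 2 were wholly above and 5 wholly below, with a median difference of −0.02, and of 24 mitosis genes 4 and 0, with a median of −0.01. Top2a, a topoisomerase of dividing cells, was at 29.5, 30.6 and 29.8 FPKM at 0.1 mg/kg and 34.3, 34.5 and 33.8 FPKM at 1 mg/kg, apart but by only 0.19. Among 44 ribosomal protein genes 2 were above and 3 below. Krt8, a keratin of simple epithelia, was at 92.8, 58.7 and 105 FPKM at 0.1 mg/kg and 116, 126 and 103 FPKM at 1 mg/kg (vehicle 2.76 ± 1.24). Krt18, its usual partner, was at 1.62, 16.8 and 0.932 FPKM at 0.1 mg/kg and 8.84, 1.06 and 1.03 FPKM at 1 mg/kg (vehicle 55.7 ± 10.9). Krt8 was above vehicle and Krt18 below it in every digoxin library, and Krt18 came nearest to vehicle in the uneven libraries.

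Markers of other cell types varied between the libraries of a dose. The 20 skeletal muscle markers summed to 398, 228 and 449 FPKM at 0.1 mg/kg, 101, 542 and 1414 FPKM at 1 mg/kg and 59.7 to 141 FPKM with vehicle, so 1 mg/kg sample 1 was at the vehicle level and sample 3 the highest of all libraries. All 14 tested members overlapped between the doses. The 22 endothelial markers summed to 215, 174 and 239.8 FPKM at 0.1 mg/kg and 124, 259 and 257 FPKM at 1 mg/kg, lowest in 1 mg/kg sample 1. Their median difference was 0.01, but 0.38 without 1 mg/kg sample 1 and 0.29 without both uneven libraries. In the last setting 16 were wholly above and 2 wholly below, beside 24.5% and 24.7% of all tested genes. In that list Apln, a peptide ligand induced by low oxygen, was at 8.96, 15.9 and 8.14 FPKM at 0.1 mg/kg and 23.01, 17.04 and 19.4 FPKM at 1 mg/kg. Its receptor gene Aplnr was at 5.001, 4.01 and 6.47 FPKM at 0.1 mg/kg and 2.49, 3.25 and 3.603 FPKM at 1 mg/kg, so the ligand was wholly above and the receptor wholly below. Fibroblast and pericyte markers summed to 233, 415 and 192 FPKM at 0.1 mg/kg and 264, 169 and 213 FPKM at 1 mg/kg against 577 to 618 with vehicle. The part of these cell types in the differences between the doses was not tested.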

How the data were processed

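Bulk poly(A) RNA of 9 tumour samples was sequenced as 150-base read pairs, per the labels' protocols. The submitters' processing notes name fastp 0.22.0, HISAT2 2.2.1 and the build GRCh38, which is human, while the deposited symbols are those of mouse genes; the read counter is not given in the sources used here. The authors deposited 1 table of FPKM values per gene and library. From the steps of low FPKM values, library depths were recovered (40517062 to 51810956), of which 99.57% to 99.76% lay in listed genes, and 99.95% of the values of tested genes came out whole within 0.03 reads.

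The 6 digoxin libraries were compared with limma 3.58.1 (R 4.3.3, trend, pseudocount 1, filter 1 FPKM in at least 3 of 6 libraries, Benjamini-Hochberg threshold 0.05); SE and 95% intervals are limma's. The vehicle libraries entered only means and an alternative fit. On simulated data for this comparison (13124 genes, 200 changed), 61% of genes changed by log2 1 and 89% of those changed by log2 2 were recovered, with 9 false among 159 calls. The simulated noise was independent between genes. In the real data the uneven libraries shifted many genes together, so these shares do not measure what could be detected here. The comparison and the 62 gene lists were chosen with earlier results of these data known. Of 1085 listed symbols, 1068 were found as written, 6 by synonym and 11 are not analysed here. Genes were named by rule: the 15 with the smallest p per direction among those whose dose groups did not overlap (since fewer than 5 were called), up to 6 members of a list by p (every tested member of lists of 15 or fewer), and a fixed set of drug-target, immediate early, checkpoint, T cell, keratin and cell-cycle genes. Predicted genes were left out, and results for some genes that the rule names are not reported here. Of the genes named in the text, Adgre1, Bag3, Ccl8, Cd2, Cd28, Cd8b1, Egln1, Egr1, Eomes, Gpi1, Gzma, Gzmc, Gzmd, Gzme, Gzmf, Hk1, Hk2, Hsp90ab1, Hspa8, Hspb8, Igtp, Klf2, Lck, Ndrg1, Nfil3, P4ha1, Slc2a1, Slc47a1 and Zap70 were chosen after their values were seen. Alternatives were other pseudocounts, filters, scalings, limma settings, sample weights, voom, a fit of all 9 libraries, a replicate block and left-out libraries. Promoters came from RefSeq (GRCm38.p6). A listed gene counted as matched if any of its promoter entries matched, while the shares over all promoters are per entry.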

Additional observations from a re-analysis of the deposited data

How the results depend on the processing

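The number of genes with adjusted p under 0.05 was 563 with sample weights, 2 in the fit of all 9 libraries, 9 without both uneven libraries and 0 under every other setting run, each library left out in turn included. Genes lying wholly above numbered 822, and 1555 with no filter, 1254 with equal medians, 3218 without both uneven libraries and 1017 to 2299 with each library left out in turn, most without 1 mg/kg sample 1. Genes lying wholly below numbered 1455, and 2460 with no filter, 892 at a mean of at least 5 FPKM, 958 with equal medians, 3238 without both and 1939 to 2419 with each library left out, most without 0.1 mg/kg sample 2. Counts grow when fewer values must be apart. The sample numbers did not pair the doses (correlations of deviations −0.19, −0.41 and 0.24), and with the replicate block 0 genes were called (901 with unadjusted p under 0.05). Of 1120 list medians, 23 moved past the spread. Of 207 named genes, 22 changed the sign of their difference in some setting, all of them with differences that were no call; the cause was not tested. With sample weights the sign changed for Cd274 −0.57, Cd79a 0.034, Gzme 0.87, Gzmf 1.12, Hif1a −0.012, Il6 −0.053 and Pax5 0.061. After leaving out both uneven libraries it changed for Cd274 −0.74, Cd79a 0.20, Gzme 0.78, Gzmf 1.21, Hif1a −0.025, Il6 −0.097, Pax5 0.023 and Tgfa −0.028. With pseudocount 0.1 the sign changed for Cxcl5 0.037 and Gzmd −0.058. With pseudocount 0.01 the sign changed for Cxcl5 0.057 and Gzmd −0.069. With quantile normalisation the sign changed for Cxcl5 0.045, Erbb3 0.017 and Pax5 0.052. With equal medians the sign changed for Cxcl5 0.023, Erbb3 0.00031, Isg15 0.036 and Pax5 0.015. With voom the sign changed for Cxcl5 0.066 and Gzmd −0.092. With rescaling to TPM the sign changed for Isg15 0.016. With each library left out in turn, the differences whose sign changed ranged for Atp1b2 from −0.15 to 0.39, Cd274 from −0.43 to 0.32, Cd79a from −0.67 to 0.34, Cxcl5 from −0.47 to 0.25, Cxcr2 from −0.12 to 0.54, Erbb3 from −0.24 to 0.084, Fxyd1 from −0.14 to 0.80, Gzma from −0.21 to 0.46, Gzmc from −0.064 to 1.10, Gzmd from −0.63 to 1.14, Gzme from −0.66 to 0.82, Gzmf from −0.69 to 1.03, Hif1a from −0.037 to 0.17, Il6 from −0.038 to 0.50, Isg15 from −0.40 to 0.24, Jdp2 from −0.019 to 0.20, Krt18 from −1.13 to 0.62, Myc from −0.28 to 0.96, Pax5 from −0.093 to 0.028, Pf4 from −0.022 to 0.32, Tgfa from −0.12 to 0.14 and Xbp1 from −0.071 to 0.15. The 3 libraries per dose left 4 residual degrees of freedom.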

Other observations

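Feedback inhibitors of MAP kinase signalling were mixed, with 10 means higher and 7 lower at 1 mg/kg. Of 17 listed genes, 4 lay wholly above the 0.1 mg/kg values and 0 below, beside 6.26% and 11.1% of all tested genes. The median difference was only 0.06, and −0.009 without 1 mg/kg sample 1. Without both uneven libraries 8 were wholly above and 4 wholly below, beside 24.5% and 24.7% of all tested genes. Dusp1, an immediate early phosphatase of MAP kinases, was at 77.7, 32.2 and 32.7 FPKM at 0.1 mg/kg and 295, 126 and 122 FPKM at 1 mg/kg against 8.31 ± 1.13 (SD, n = 3) with vehicle. Its relative Dusp4 was at 18.7, 9.96 and 13.2 FPKM at 0.1 mg/kg and 61.9, 25.4 and 26.7 FPKM at 1 mg/kg. Dusp5 (0.80) and Spred3 (0.23) were also apart, and Errfi1 (0.43) and Dusp6 (0.29) overlapped. Among 17 NF-kB genes, 2 were wholly above and 0 below, beside the same 6.26% and 11.1%, and 9 means were higher and 8 lower. Their median difference was 0.06, and −0.07 without both uneven libraries. In that setting 4 were wholly above and 7 wholly below, beside 24.5% and 24.7% of all tested genes. The 2 genes above with all libraries were Nfkbiz and Tnfaip3. Nfkbiz was at 30.2, 16.97 and 22.01 FPKM at 0.1 mg/kg and 70.8, 39.6 and 43.8 FPKM at 1 mg/kg (vehicle 10.4 ± 1.399). Tnfaip3, which encodes A20, was at 8.81, 4.24 and 4.02 FPKM at 0.1 mg/kg and 32.8, 8.998 and 13.3 FPKM at 1 mg/kg (vehicle 2.403 ± 0.113). Nfkbia, the inhibitor I-kappa-B alpha, differed by 1.06 with overlap, and the adhesion gene Icam1 by −0.53, the adaptor genes Tnip3 by −0.39 and Traf1 by −0.31.

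In the integrated stress response, 3 of 20 tested genes were wholly above and the median difference was 0.19 (0.03 without 0.1 mg/kg sample 2, 0.08 without 1 mg/kg sample 1 and −0.07 without both uneven libraries). Ppp1r15a, the GADD34 phosphatase subunit that ends the response, was at 34.8, 19.6 and 23.98 FPKM at 0.1 mg/kg and 123, 52.9 and 52.1 FPKM at 1 mg/kg (vehicle 8.83 ± 0.587). Ddit4, also a HIF-1 target, and Sesn2 (0.34) were the others, while Cebpb (0.62), Aldh1l2 (0.53) and Shmt2 (−0.23) overlapped. In the BCL2 family 5 of 16 tested genes were wholly below, among them all 3 tested members of the Bcl2a1 cluster, whose near-identical copies may share reads. Bcl2a1a was at 9.11, 5.204 and 7.84 FPKM at 0.1 mg/kg and 2.54, 4.57 and 2.803 FPKM at 1 mg/kg, and Bcl2a1b differed by −0.68. Bak1, a proapoptotic pore former, differed by −0.30 without overlap, Mcl1 by 0.43 and Bax by −0.22 with overlap.

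Ccl8 and Slc47a1 were chosen after their values were seen. Ccl8, a monocyte chemokine, was at 775, 298 and 723 FPKM at 0.1 mg/kg and 74.2, 204 and 153 FPKM at 1 mg/kg against 55.2 ± 36.4 with vehicle (difference −2.05, SE 0.49, −2.07 without both uneven libraries). Slc47a1, a transporter that exports organic cations, was at 28.2, 20.7 and 58.4 FPKM at 0.1 mg/kg, 12.5, 16.6 and 9.703 FPKM at 1 mg/kg and 0.802, 0.254 and 0.0456 FPKM with vehicle, so every digoxin library was above vehicle and the lower dose stood higher (difference −1.30, SE 0.38).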
